A study of Homo sapiens with 8 samples.

Results

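The bone morphogenetic protein (BMP) pathway was followed through 10 genes in H9 human embryonic stem cells (hESCs), an established pluripotent line. They were the ligands BMP4 and BMP7, the receptors BMPR1A and BMPR2, the inhibitors SMAD6 and BAMBI and the target genes ID1, ID2, ID3 and ID4. The genes were taken by symbol for their place in the pathway, in a set drawn up with earlier results of these data known, and all 10 were found among the 19472 genes of the crowding table and among the 19551 genes of the ETV4 knockdown (KD) table. All 10 had enough reads to be tested in every comparison.

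RNA-seq was performed on 8 libraries in 2 experiments. Wild-type H9 cells labelled small served as low-density hESCs and were compared with crowded hESCs, whose adhesive area was restricted to small drops of Matrigel, with 2 libraries for each density. In the other experiment, hESCs that carried a lentiviral control hairpin (labelled Ctrl, shControl) were compared with hESCs that carried a hairpin against ETV4 (labelled ETV4 KD, shETV4), again with 2 libraries each. All cells were maintained in mTeSR1 or TeSR-E8 on Matrigel, and the KD groups shared a lentiviral vector that was not used in the density experiment. ETV4 is an ETS-family transcription factor, and the study asked how crowding and the loss of ETV4 change gene expression in undifferentiated hESCs. Which of the study's ETV4 hairpins was used, and whether both KD libraries carried the same one, is not given in the sources used here. The study's reporting summary says in general that experiments were replicated or done independently, but does not name the RNA-seq libraries. Whether the libraries of a group came from separate cultures is not given. The p-values therefore measure the spread between these libraries, which may be technical.

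BMP ligands signal as dimers through a complex of type I receptors, such as BMPR1A, and type II receptors, such as BMPR2. The active type I receptor phosphorylates SMAD1, SMAD5 and SMAD9, which enter the nucleus with SMAD4 and bind GC-rich elements, and the ID genes are the best known direct targets in many cell types. ID proteins lack a DNA-binding domain and sequester the E proteins TCF3, TCF4 and TCF12, while SMAD6 and the pseudoreceptor BAMBI limit the signal. In hESCs, added BMP4 drives cells out of pluripotency towards mesoderm or extraembryonic fates, and neuroectoderm forms when BMP signals are blocked.

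The promoters of the 4 ID genes and of BAMBI are shown because the ID genes are the transcriptional readout of the pathway and BAMBI had the largest change with crowding among the 10 genes, and because shared elements can be read from them directly. Each line gives the 250 bases before the RefSeq transcription start, 5′ to 3′ on the strand of the gene, in build GRCh38.p14. Capitals mark matches, on either strand, to 4 motifs, and overlapping matches were counted separately. The first was GGCGCC, a known binding element of BMP-activated SMADs that reads the same on both strands. The second was CCGGAA, a core that ETS factors such as ETV4 recognise. The third was the box that binds the trimeric factor NF-Y, CCAAT, which reads as its reverse complement when it lies on the other strand. The last was TATAA, taken as a core promoter element.
ID1, chr20:31605039-31605288, plus strand: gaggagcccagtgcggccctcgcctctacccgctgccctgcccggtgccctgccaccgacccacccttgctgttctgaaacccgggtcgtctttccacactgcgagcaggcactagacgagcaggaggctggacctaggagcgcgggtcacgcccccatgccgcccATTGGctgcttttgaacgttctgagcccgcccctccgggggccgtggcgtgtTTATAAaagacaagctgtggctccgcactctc
ID2, chr2:8681806-8682055, plus strand: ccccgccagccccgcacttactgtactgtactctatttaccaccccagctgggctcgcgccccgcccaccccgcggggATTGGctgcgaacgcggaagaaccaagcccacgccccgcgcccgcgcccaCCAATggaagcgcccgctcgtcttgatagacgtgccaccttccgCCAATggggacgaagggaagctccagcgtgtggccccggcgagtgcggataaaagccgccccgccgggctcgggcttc
ID3, chr1:23559502-23559751, minus strand: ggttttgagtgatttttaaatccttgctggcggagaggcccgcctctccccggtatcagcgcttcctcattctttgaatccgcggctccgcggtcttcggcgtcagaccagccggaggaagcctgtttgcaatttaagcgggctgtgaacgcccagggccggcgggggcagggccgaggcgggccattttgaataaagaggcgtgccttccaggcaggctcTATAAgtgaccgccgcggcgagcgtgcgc
ID4, chr6:19837120-19837369, plus strand: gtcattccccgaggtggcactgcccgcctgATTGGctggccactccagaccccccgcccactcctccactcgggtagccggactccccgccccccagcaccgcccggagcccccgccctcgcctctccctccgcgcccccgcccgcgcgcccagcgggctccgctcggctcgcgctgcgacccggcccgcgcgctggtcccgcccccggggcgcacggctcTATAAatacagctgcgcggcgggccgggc
BAMBI, chr10:28677271-28677520, plus strand: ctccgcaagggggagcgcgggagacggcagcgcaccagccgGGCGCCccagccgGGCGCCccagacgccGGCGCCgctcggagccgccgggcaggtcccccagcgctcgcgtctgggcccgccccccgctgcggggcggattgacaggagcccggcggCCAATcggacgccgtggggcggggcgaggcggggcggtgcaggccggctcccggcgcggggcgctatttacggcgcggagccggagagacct

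TATAA occurred in the windows of ID1, ID3 and ID4, starting at position -29 from the transcription start in ID3 and ID4 and, as overlapping matches on opposite strands, at -32 and -31 in ID1, whereas 18.9% of 35114 RefSeq promoter windows of this length hold it. CCAAT occurred in ID1, ID2 and ID4, with 3 matches in ID2 at positions -172, -122 and -78, against 32.0% of all windows, and BAMBI also held it, at position -92. GGCGCC occurred in none of the 4 ID windows, but the BAMBI window held 3 matches, at positions -209, -196 and -181, against 16.4% of all windows. Sequence further upstream was not searched, so the windows do not show that the ID genes lack such elements. The BAMBI window was 81.2% G or C, and the share of all windows was not matched for this. Its GGCGCC matches therefore cannot show an excess. CCGGAA, found in 14.5% of all windows, occurred in none of the 5 windows shown. RefSeq promoters were matched for 9 of the 10 genes. Of the others, BMPR2 had 1 GGCGCC, BMPR1A had 1 TATAA, SMAD6 had no match, and of the 3 start sites of BMP4 the first had 1 GGCGCC and 1 CCGGAA and the third had 1 TATAA. The NF-Y box and the core promoter element were added as motifs after these promoters were seen. Their matches here, set beside the shares of all windows, therefore cannot show an excess. A match is a description of the sequence only and is not a binding site.

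Gene counts totalled 50359703 to 62410168 per library. Sampling noise was therefore small for most genes, with 67 to 181 reads for SMAD6 in the KD experiment as the thinnest case, and the libraries of a group differed from each other beyond counting error. The 10 pluripotency markers examined were all present, at no less than 16.6 FPKM (fragments scaled to transcript length and to the mapped reads of the library) in any library. After ETV4 KD, 3 of them were called (1 higher, 2 lower, between -0.82 and 0.51 on the log2 scale), and none was called for crowding, where 7 had an adjusted p below 0.05. ETV4 was at 90.8 and 95.1 FPKM in shControl and at 45.6 and 40.9 FPKM in shETV4 hESCs, a log2 fold change of -1.15 (SE 0.07, edgeR's quasi-likelihood test, Benjamini-Hochberg adjusted p = 1.60e-04). In the crowding experiment, ETV4 went from 73.2 and 72.6 to 54.2 and 53.9 FPKM, a log2 fold change of -0.49 (SE 0.06, edgeR adjusted p = 9.42e-07), just short of the fold threshold of 0.5 used below. The biological coefficient of variation was 6.83% in the crowding experiment and 9.93% in the KD experiment.

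On the FPKM scale, which corrects for length and so allows genes to be compared, the 10 genes spanned more than 2 orders of magnitude in low-density hESCs. ID3 (53.8 and 59.4 FPKM) and ID1 (51.8 and 56.5) led and overlapped each other. BMPR1A followed at 25.4 and 25.5 FPKM, and BAMBI at 12.3 and 11.6. BMP7 (5.99 and 5.57) and ID2 (4.70 and 6.11) overlapped, as did BMPR2 (2.64 and 2.79) and BMP4 (2.80 and 2.13), and ID4 (0.876 and 1.10) and SMAD6 (0.509 and 0.415) came last. The order in shControl hESCs differed, with BMPR1A (22.0 and 21.6 FPKM) above ID1 (14.3 and 15.6) and ID2 (7.82 and 7.83) above BMP7 (3.95 and 4.13). There, ID3 (63.9 and 69.0) did not overlap ID1, and BMPR2 (3.04 and 2.86) did not overlap BMP4 (1.34 and 1.52). The experiments were normalized separately, so levels are not compared between them.

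**Figure D1:**
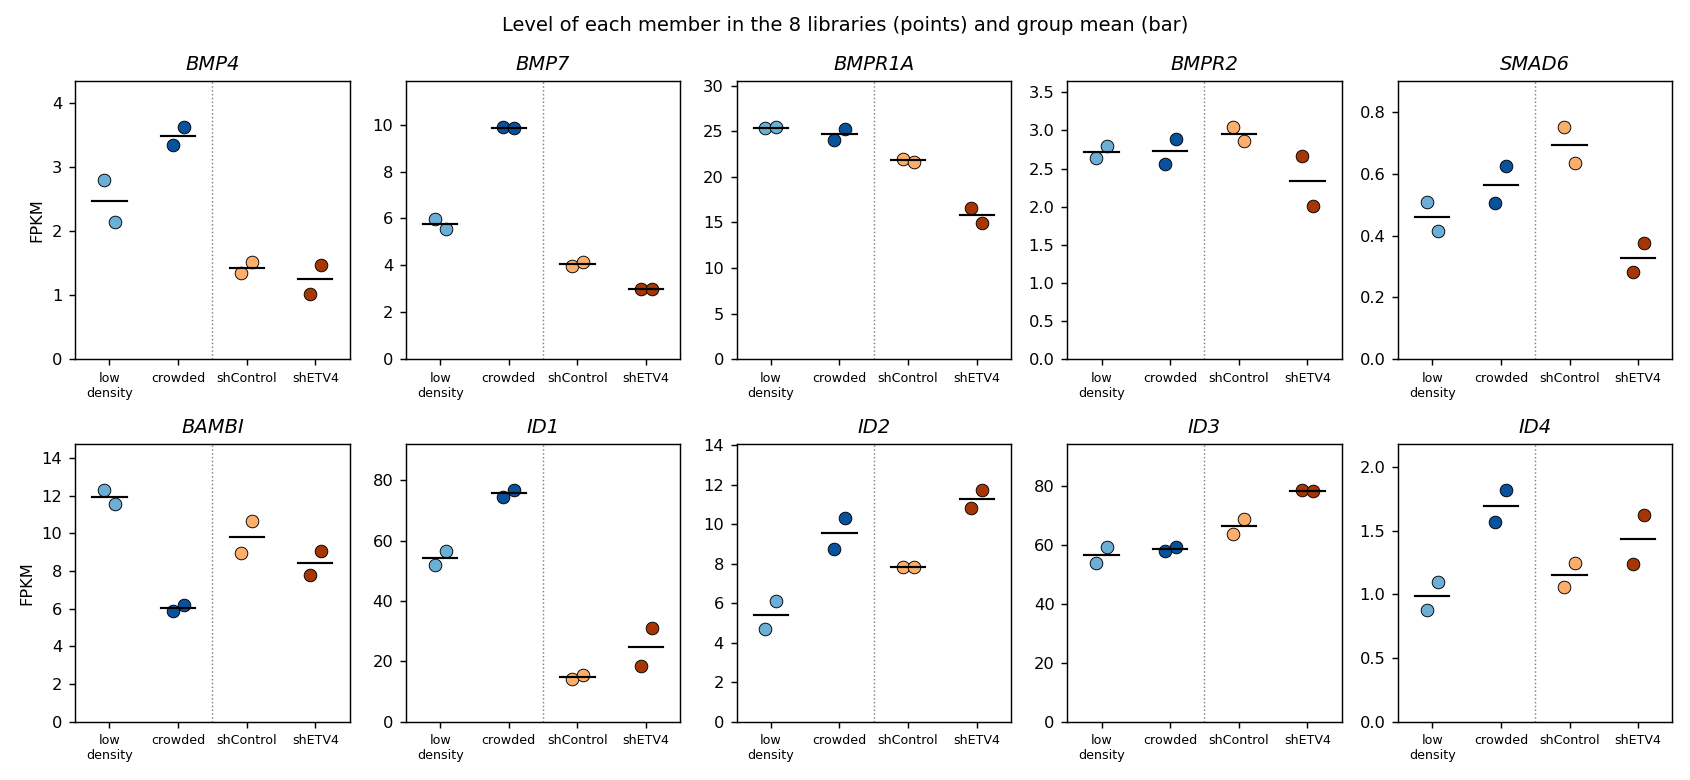
FPKM (vertical axes, each from 0) of the 10 genes in the low-density, crowded, shControl and shETV4 groups. Points are libraries, black bars are the means of 2 libraries, and the dotted line separates the experiments, which were normalized separately. BMP7 separates the densities without overlap (5.57 to 5.99 against 9.88 to 9.89 FPKM), BAMBI does so in the opposite direction, and the shETV4 libraries stand far apart from each other for ID1 (18.4 and 31.1 FPKM).

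Crowding raised BMP7, ID2 and ID4 and lowered BAMBI, while ID3 and both receptors stayed within narrow limits. A gene was called when the adjusted p of edgeR's quasi-likelihood test (Benjamini-Hochberg over the 17672 genes tested) was below 0.05 and the absolute log2 fold change was over 0.5. By this rule 4 of the 10 genes were called, 3 higher and 1 lower, against 16.1% of all genes tested, of which 10.7% were higher and 5.47% lower. At any fold change, 6 of the 10 genes had an adjusted p below 0.05, against 39.7% of all genes. The median log2 fold change of the 10 genes was 0.33, and that of all genes tested was 0.00.

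BMP7, a ligand that can pair with BMP4 in a heterodimer, was at 5.99 and 5.57 FPKM at low density and at 9.89 and 9.88 FPKM in crowded hESCs. Both crowded libraries lay above both low-density libraries. The ratio was 1.65 and the log2 fold change was 0.72 (SE 0.07, edgeR adjusted p = 1.24e-07), and the call held in all 9 settings and with each library left out. BMP4, the ligand used to induce mesendoderm and amnion in culture, rested on 284 to 477 reads. Its levels were 2.80 and 2.13 FPKM at low density and 3.34 and 3.61 FPKM when crowded, without overlap. Its log2 fold change of 0.43 (SE 0.15, edgeR adjusted p = 0.0298) was under the fold threshold, and it moved to 0.62, and was called, without the first low-density library and to 0.26 without the second, where the adjusted p was 0.371.

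The receptors moved little. BMPR1A, the main type I receptor for BMP4, was at 25.4 and 25.5 FPKM at low density and at 24.0 and 25.3 FPKM in crowded hESCs, with a log2 fold change of -0.10 (95% interval -0.22 to 0.02, edgeR adjusted p = 0.172). BMPR2, the type II receptor, was at 2.64 and 2.79 FPKM and at 2.56 and 2.89 FPKM, so that the groups overlapped (log2 fold change -0.05, 95% interval -0.20 to 0.10, edgeR adjusted p = 0.616). Changes beyond the fold threshold lay outside both intervals.

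The inhibitors differed from each other. BAMBI, a transmembrane protein that resembles a type I receptor but lacks the kinase, was at 12.3 and 11.6 FPKM at low density and at 5.87 and 6.22 FPKM when crowded. Its level fell in both crowded libraries to a ratio of 0.488, the largest change of the 10 genes in this comparison (log2 fold change -1.04, SE 0.09, edgeR adjusted p = 1.61e-08), and the call held in all 9 settings. SMAD6, which competes for receptors and with SMAD4 for SMAD1, is itself a BMP target. It was at 0.509 and 0.415 FPKM and at 0.506 and 0.625 FPKM. The SMAD6 groups overlapped (log2 fold change 0.24, 95% interval -0.23 to 0.70, edgeR adjusted p = 0.422), with 110 to 172 reads in a library.

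Of the 4 ID targets, 2 were called and none fell. ID2 was at 4.70 and 6.11 FPKM at low density and at 8.74 and 10.3 FPKM in crowded hESCs, and ID4 was at 0.876 and 1.10 FPKM and at 1.57 and 1.82 FPKM. Neither gene's groups overlapped, with log2 fold changes of 0.76 (SE 0.13, edgeR adjusted p = 1.10e-04) for ID2 and 0.72 (SE 0.16, edgeR adjusted p = 0.00106) for ID4. With limma on log2(FPKM + 1), where a low gene's change is understated, ID4 was at 0.44 and was not called. ID1, the target most often used as a readout of BMP signalling, was at 51.8 and 56.5 FPKM and at 74.5 and 76.7 FPKM. The ID1 groups were well separated (log2 fold change 0.43, SE 0.06, edgeR adjusted p = 1.04e-05), but the change was below the fold threshold. ID3, usually grouped with ID1 as an early target, was at 53.8 and 59.4 FPKM and at 58.0 and 59.5 FPKM, which overlapped, and its log2 fold change was -0.00 (95% interval -0.13 to 0.13, edgeR adjusted p = 0.967). The ratio of ID1 to ID3 FPKM thus went from 0.962 and 0.951 at low density to 1.28 and 1.29 in crowded hESCs.

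Genes listed as markers of other cell types also differed between the densities, and their part in these results was not tested. Summed over each list, mesendoderm markers (6 of 9 in the table, mostly CDH2) ran from 19.2 to 19.6 FPKM at low density and from 7.11 to 7.63 FPKM when crowded, and neuroectoderm markers (6 of 8, mostly NES) from 88.1 to 89.0 and from 66.5 to 75.1 FPKM. The list for amnion, surface ectoderm and trophoblast (6 of 9, mostly KRT18) ran from 288 to 297 FPKM and from 197 to 205 FPKM, and that for fibroblasts (3 of 6, mostly THY1) from 114 to 116 and from 82.8 to 83.7 FPKM. These sums follow the most abundant marker of each list, so they do not show that cells of these types were present. CDH2 encodes N-cadherin, which the paper cites as a mark of cells at the periphery of hESC colonies. In the amnion list 5 of 6 genes tested had changes above 0 (median 0.43), with TFAP2C and IGFBP3 called higher and KRT18 called lower, and among the neuroectoderm markers SOX1 was called higher (2.27) and LHX2 and NES lower. The BMP-induced amnion markers GATA3, TFAP2A and CDX2, and the mesendoderm markers EOMES and SOX17, were not listed in the table. In bulk RNA, fewer cells of a type and less RNA per cell cannot be told apart.

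**Figure D2:**
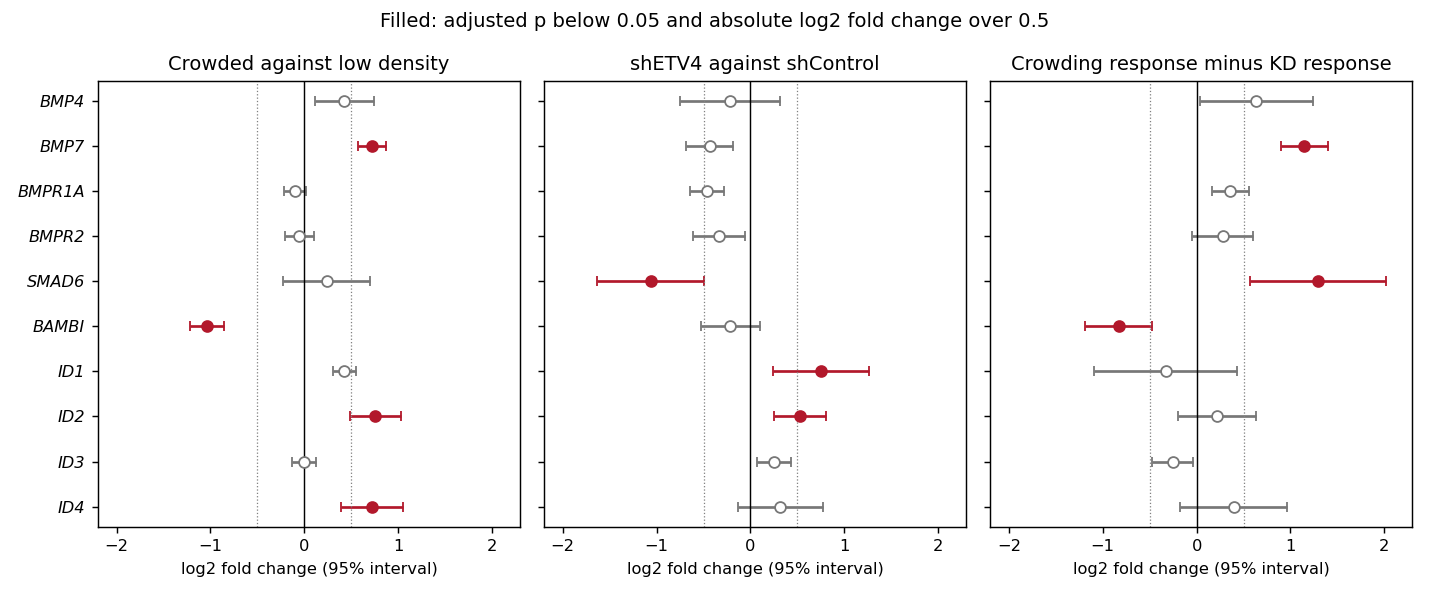
Log2 fold change (horizontal axes) of the 10 genes for crowded against low-density hESCs, for shETV4 against shControl hESCs, and for the first minus the second. Points are edgeR estimates with their 95% intervals, filled red where the gene was called, and dotted lines mark the fold threshold of 0.5 on either side. BMP7 lies at 0.72 for crowding and at -0.44 for ETV4 KD, and SMAD6 at 0.24 and -1.06.

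After ETV4 KD, SMAD6 was called lower and ID1 and ID2 higher, and each of these calls was lost under some settings. Of the 10 genes, 3 were called (2 higher, 1 lower), against 13% of the 17879 genes tested, of which 5.88% were higher and 7.1% lower. At any fold change 5 of the 10 genes had an adjusted p below 0.05, against 21.5% of all genes. The median log2 fold change of the 10 genes was -0.22, beside 0.00 for all genes tested.

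Neither ligand was called after ETV4 KD. BMP7 was at 3.95 and 4.13 FPKM in shControl and at 2.98 in each shETV4 library, without overlap, and its log2 fold change of -0.44 (SE 0.11, edgeR adjusted p = 0.0254) was below the fold threshold. BMP4 was at 1.34 and 1.52 FPKM and at 1.02 and 1.46 FPKM, which overlapped (log2 fold change -0.22, SE 0.23, edgeR adjusted p = 0.535). With 122 to 170 reads, the 95% interval of the BMP4 change ran from -0.75 to 0.31.

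BMPR1A was at 22.0 and 21.6 FPKM in shControl and at 16.6 and 15.0 FPKM in shETV4 hESCs. The groups did not overlap, and the ratio of 0.724 (log2 fold change -0.47, SE 0.08, edgeR adjusted p = 0.00643) again passed the p threshold but not the fold threshold, which it reached (-0.51) without the first shETV4 library. BMPR2 was at 3.04 and 2.86 FPKM and at 2.66 and 2.01 FPKM, also without overlap, and its log2 fold change was -0.33 (SE 0.12, edgeR adjusted p = 0.0830). The BMPR2 value was -0.52 without the first shETV4 library, where it was called (edgeR adjusted p = 0.00237), and -0.17 without the second.

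SMAD6 was at 0.752 and 0.635 FPKM in shControl and at 0.281 and 0.376 FPKM in shETV4 hESCs. Both shETV4 libraries lay below both controls, and SMAD6 fell to a ratio of 0.479 (log2 fold change -1.06, SE 0.25, edgeR adjusted p = 0.0205). The call was lost without the first shControl library (log2 fold change -0.92, edgeR adjusted p = 0.0940) and in 2 of the limma settings on FPKM. BAMBI was at 8.98 and 10.6 FPKM and at 7.78 and 9.06 FPKM, with a shETV4 library just above a control library (log2 fold change -0.21, 95% interval -0.52 to 0.10, edgeR adjusted p = 0.295).

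The 4 ID genes all had fitted changes above 0, and 2 of them were called. ID2 was at 7.82 and 7.83 FPKM in shControl and at 10.8 and 11.7 FPKM in shETV4 hESCs, without overlap. It rose to a ratio of 1.45 (log2 fold change 0.53, SE 0.12, edgeR adjusted p = 0.0184). The ID2 change lay close to the fold threshold, and the call held in 1 of the 4 fits that each left out a library, with changes of 0.44 to 0.62. It was also lost in 3 of the 9 other settings, all with limma on FPKM, at 0.47 to 0.50.

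ID1 was at 14.3 and 15.6 FPKM in shControl and at 18.4 and 31.1 FPKM in shETV4 hESCs. Both shETV4 libraries lay above both controls, but they differed from each other more than the lower of them did from the controls. The log2 fold change was 0.75 (SE 0.22, edgeR adjusted p = 0.0455), and it became 0.29 (edgeR adjusted p = 0.102) without the second shETV4 library and 1.10 without the first. The ID1 call therefore rested on 1 library. It held in 3 of the 9 other settings and was lost without a filter on low counts (edgeR adjusted p = 0.0717), with the Wald test of DESeq2 (adjusted p = 0.154) and in the 4 limma settings on FPKM (adjusted p = 0.110 to 0.128).

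ID3 was at 63.9 and 69.0 FPKM in shControl and at 78.7 and 78.4 FPKM in shETV4 hESCs. The ID3 groups did not overlap, with a log2 fold change of 0.25 (SE 0.08, edgeR adjusted p = 0.0582). ID4 was at 1.06 and 1.25 FPKM and at 1.24 and 1.63 FPKM, which overlapped (log2 fold change 0.32, SE 0.20, edgeR adjusted p = 0.282). The ID4 value was 0.53 without the first shETV4 library, where it was called (edgeR adjusted p = 0.0450), and 0.08 without the second.

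Genes of the same marker lists differed in the KD experiment too, and their part in the results was not tested. Here, too, the sums do not show that cells of these types were present. Summed neuroectoderm markers (6 of 8 in the table) ran from 46.6 to 52.3 FPKM in shControl and from 74.2 to 83.0 FPKM in shETV4 hESCs, and mesendoderm markers (4 of 9) from 18.8 to 19.0 and from 22.1 to 23.4 FPKM. The amnion list (7 of 9) ran from 265 to 286 and from 289 to 297 FPKM, with CDX2 at no more than 0.019 FPKM, GATA3 at no more than 0.153 FPKM and TFAP2A not listed. The fibroblast list (4 of 6) ran from 152 to 155 and from 116 to 126 FPKM, with COL1A1 called higher (1.00) and THY1 called lower (-0.81), while DCN and LUM were not listed. OTX2 was called higher among the neuroectoderm markers (2.73), and in the amnion list IGFBP3 was called higher and GABRP lower.

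The 4 ID genes summed to 111 and 123 FPKM at low density and to 143 and 148 FPKM when crowded, and to 87.1 and 93.6 FPKM in shControl and 109 and 123 FPKM in shETV4 hESCs. Neither pair of groups overlapped. ID1 gave 46.6% and 45.9% of the sum at low density and 52.2% and 51.7% when crowded. In the KD experiment ID1 gave 16.4% and 16.6% in shControl and 16.8% and 25.3% in shETV4 hESCs. The experiments were separate and differed in the lentiviral vector, so the shares are not compared between them. ID3 held most of the remainder, and ID2 and ID4 together were a minor share in every library. With 2 libraries against 2, an exact permutation test of these sums could not pass 0.05, so they are given as descriptions.

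**Figure D3:**
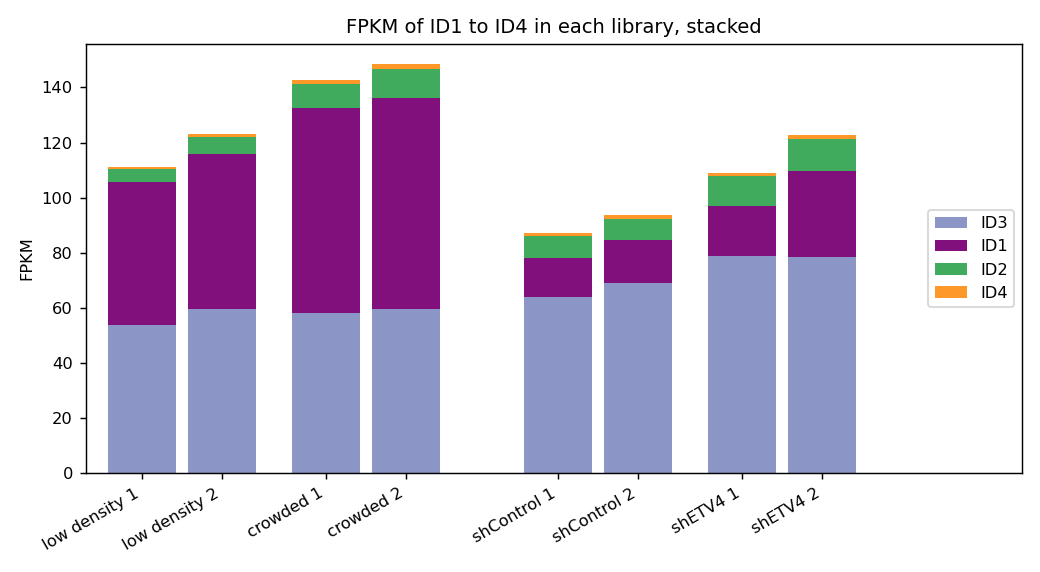
Summed FPKM (vertical axis, from 0) of ID1, ID2, ID3 and ID4 in each of the 8 libraries. The sum is 111 and 123 FPKM at low density and 143 and 148 FPKM when crowded. In the KD experiment, which was normalized separately, the second shETV4 library holds 25.3% of its sum as ID1.

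The E proteins bound by ID proteins were not called in either comparison. TCF3, TCF4 and TCF12 had log2 fold changes of 0.09, 0.20 and 0.02 for crowding and 0.17, -0.11 and 0.03 for ETV4 KD, and only TCF4 in the crowding comparison passed the p threshold (edgeR adjusted p = 0.00796). The ratio of summed ID to summed E protein FPKM was 1.55 and 1.67 at low density and 1.64 and 1.85 when crowded, which overlapped. It was 1.24 and 1.33 in shControl and 1.47 and 1.64 in shETV4 hESCs, which did not overlap.

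Whether a gene responded differently to crowding and to ETV4 KD was tested in a joint fit of the 8 libraries as the crowding change minus the KD change, over 17790 genes. In this test 3 of the 10 genes were called, 2 higher and 1 lower, against 27.5% of all genes, of which 15% were higher and 12.5% lower. At any fold change 4 of the 10 genes passed, against 38.5% of all genes, and the median difference of the 10 genes was 0.32 beside 0.00 for all genes. Thus, the share of the 10 genes that differed was close to that of the background.

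BMP7 had a difference of 1.15 on the log2 scale (SE 0.12, edgeR adjusted p = 2.44e-05), with changes above 0 for crowding and below 0 for KD. SMAD6 had a difference of 1.30 (SE 0.33, edgeR adjusted p = 0.00888) and BAMBI one of -0.83 (SE 0.16, edgeR adjusted p = 0.00192), so that the inhibitors differed in opposite directions. These 3 calls held with any of the 8 libraries left out, and only that of SMAD6 was lost under another setting, at 0.45 with limma on log2(FPKM + 1). BMPR1A differed by 0.36 (SE 0.09, edgeR adjusted p = 0.00856), below the fold threshold.

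No ID gene was called in this test with all 8 libraries. The differences were -0.33 for ID1 (95% interval -1.09 to 0.43), 0.22 for ID2 (-0.19 to 0.64), -0.26 for ID3 (-0.47 to -0.04) and 0.40 for ID4 (-0.17 to 0.97), with edgeR adjusted p-values of 0.461, 0.388, 0.0619 and 0.256. The intervals of ID1, ID2 and ID4 held differences of more than 0.5, so these data do not show that the ID genes responded alike. The ID1 difference was -0.68, and called, without the first shETV4 library (edgeR adjusted p = 4.24e-05) and 0.13 without the second. BMP4 (0.64, SE 0.28, edgeR adjusted p = 0.0881) and BMPR2 (0.28, SE 0.15, edgeR adjusted p = 0.162) were not called, although the BMP4 difference was called at 0.91 without the second shETV4 library.

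The rest of the pathway was read from a list of 63 further ligands, receptors, co-receptors, antagonists, signal transducers, inhibitors, targets and ID partners. For crowding, 46 were tested and 9 were called, 3 higher and 6 lower (19.6%, against the 16.1% of all genes given above), with a median log2 fold change of -0.00. For ETV4 KD, 50 were tested and 5 were called, 3 higher and 2 lower (10%, against 13% of all genes), with a median of -0.07. In the difference, 45 were tested and 5 were called, 1 higher and 4 lower (11.1%, against 27.5% of all genes), with a median of -0.01. The signal transducers SMAD1, SMAD4, SMAD5 and SMAD9 were not called in any comparison. With crowding, SMAD4 (0.36, edgeR adjusted p = 4.29e-05) and SMAD1 (-0.28, edgeR adjusted p = 0.00563) passed the p threshold only. So did SMAD4 in the difference (0.42, edgeR adjusted p = 0.00345). The 5 other targets tested for crowding, which included MSX1 and MSX2, were not called. Their group means were about 0.17 FPKM or less, on means of 10.5 to 37 reads, and all 5 changes lay above 0 (median 0.41). MSX1 was at 0.82 (95% interval -0.18 to 1.82) and MSX2 at 0.58 (-0.34 to 1.51). For ETV4 KD, 5 such targets were tested and none was called, with 3 changes above 0 and 2 below (median 0.17).

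Among the other ligands, GDF11, which is related to the activins and signals mainly through SMAD2 and SMAD3, was at 2.76 and 2.60 FPKM at low density and at 4.92 and 4.69 FPKM when crowded. It rose with crowding (log2 fold change 0.79, SE 0.07, edgeR adjusted p = 3.26e-08), and its change with ETV4 KD was -0.03 (edgeR adjusted p = 0.887). The difference of 0.81 was called (edgeR adjusted p = 0.00106). BMP2, a close relative of BMP4, also rose with crowding, by 0.80 (SE 0.22, edgeR adjusted p = 0.00670) from a mean below 1 FPKM. None of the 7 other ligands tested for ETV4 KD was called.

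Antagonists and binding proteins, 17 of the 63 genes listed, held 5 of the 9 crowding calls and 4 of the 5 KD calls. Most are secreted, but CRIM1 is a transmembrane protein. Of 13 tested for crowding, 5 were called, 1 higher and 4 lower (38.5%, against 16.1% of all genes, 5.47% lower). Of 16 tested for ETV4 KD, 4 were called, 3 higher and 1 lower (25%, against 13% of all genes). In the difference 3 of 13 were called (23.1%, against 27.5% of all genes). The lists were drawn up with earlier results of these data known, so these shares cannot show an excess. The KD calls included SOST, at a mean of 6.5 reads in shControl. CER1, which binds BMPs, NODAL and WNT ligands, was at 3.24 and 3.82 FPKM at low density and at 0.443 and 0.189 FPKM when crowded, and at 1.74 and 2.46 FPKM in shControl and 0.688 and 1.26 FPKM in shETV4 hESCs. It fell in both comparisons, by 3.53 (edgeR adjusted p = 3.86e-08) and by 1.09 (edgeR adjusted p = 0.0480) on the log2 scale, and the 2 falls differed from each other by -2.44 (SE 0.51, edgeR adjusted p = 0.00274). FST, which binds activins and, less tightly, BMPs, was at 2.55 and 2.37 FPKM at low density and at 5.49 and 5.26 FPKM when crowded, and at 2.84 and 2.75 FPKM in shControl and 4.73 and 5.13 FPKM in shETV4 hESCs. FST rose in both comparisons, by 1.04 (SE 0.11, edgeR adjusted p = 3.99e-07) and 0.79 (SE 0.13, edgeR adjusted p = 0.00653), and its difference of 0.25 was not called (edgeR adjusted p = 0.257).

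CRIM1, a transmembrane protein that binds BMPs in the cells that make them, was at 7.11 and 6.97 FPKM at low density and at 4.97 and 4.63 FPKM when crowded. It fell with crowding (log2 fold change -0.61, SE 0.07, edgeR adjusted p = 7.50e-07), while its KD value was 0.23 (edgeR adjusted p = 0.111), and the difference of -0.85 was called (edgeR adjusted p = 1.61e-04). GREM1, a BMP antagonist of the DAN family, was below 1 FPKM in every library. It fell by 2.96 with crowding (SE 0.25, edgeR adjusted p = 1.20e-08) and rose by 1.45 with ETV4 KD (SE 0.25, edgeR adjusted p = 0.00699) on the log2 scale. Other genes called below 1 FPKM were SOSTDC1 (-1.63) and the type I receptor BMPR1B (-0.74) for crowding, and SOST (2.17) and the receptor ACVRL1 (-1.89) for ETV4 KD. Mean reads at low density and when crowded were 24.5 and 8.5 for SOSTDC1 and 85 and 56.5 for BMPR1B. In shControl and shETV4 they were 6.5 and 29.5 for SOST and 30.5 and 8 for ACVRL1. The edgeR adjusted p-values were 0.0121, 0.0342, 0.0329 and 0.0370 in the order named, so these calls rest on few reads.

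SMAD7, the inhibitory SMAD shared by the BMP and TGF-β branches, was at 12.0 and 12.9 FPKM at low density and at 5.63 and 4.33 FPKM when crowded. It fell with crowding to a ratio of 0.387 (log2 fold change -1.37, SE 0.10, edgeR adjusted p = 9.45e-08), further than BAMBI did. In the KD experiment SMAD7 was at 7.18 and 7.16 FPKM in shControl and at 5.03 and 5.52 FPKM in shETV4 hESCs, a log2 fold change of -0.43 (SE 0.11, edgeR adjusted p = 0.0261) that was below the fold threshold. The difference of -0.94 was called (SE 0.16, edgeR adjusted p = 8.65e-04). SMAD6, SMAD7 and BAMBI thus had their largest falls in different comparisons, SMAD6 with ETV4 KD and SMAD7 and BAMBI with crowding.

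**Figure D4:**
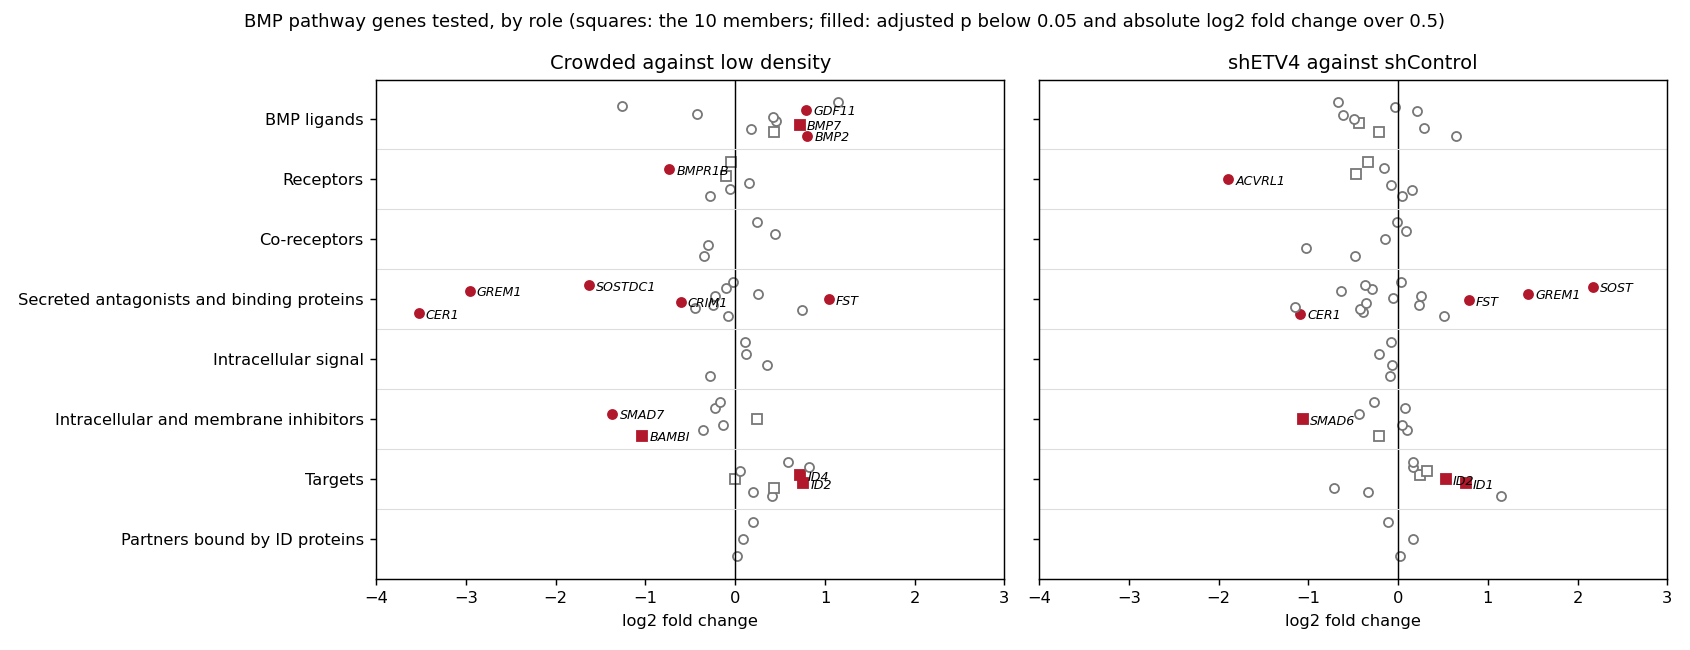
Log2 fold change (horizontal axes) of each tested gene of the BMP pathway, grouped by role, for crowded against low-density hESCs and for shETV4 against shControl hESCs. Squares are the 10 genes followed, circles the other genes, and filled red symbols with names are those called. Under crowding, 5 of 13 antagonists and binding proteins tested are called, against 16.1% of all genes, in lists drawn up with earlier results known. Of these 5, 4 lie below 0, with CER1 lowest at -3.53, and FST lies above 0 in both comparisons.

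The genes lie at chr14:54416454-54425479 (BMP4), chr20:55743809-55841697 (BMP7), chr10:88516353-88692582 (BMPR1A), chr2:203241050-203432474 (BMPR2), chr15:66994574-67075187 (SMAD6), chr10:28966439-28971861 (BAMBI), chr20:30193086-30194318 (ID1), chr2:8818975-8824591 (ID2), chr1:23884417-23885992 (ID3) and chr6:19837601-19842428 (ID4) in GRCh37, the build of the deposited counts. ID1, ID3 and BAMBI overlap no other annotated gene. BMP7, ID2 and ID4 overlap an antisense RNA (BMP7-AS1, ID2-AS1 and LNC-LBCS), as does BMP4 (an unnamed long non-coding RNA), and since it is not stated whether reads were counted by strand, reads of such a partner cannot be told apart from theirs. SMAD6 overlaps a long non-coding RNA and BMPR2 a protein-coding gene on their own strand, and BMPR1A and BMPR2 hold pseudogenes, so the assignment of reads in the shared stretches is also uncertain for these genes.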

How the data were processed

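The authors prepared stranded poly-A libraries, sequenced paired reads of 100 bases, trimmed them with Trimmomatic, mapped them to GRCh37 with HISAT2 2.1.0 and assembled known transcripts with StringTie 2.1.3b, as named in the study's methods and the submitters' processing notes. For each experiment the authors deposited 1 table with the read count of each gene, not normalized, and its FPKM, normalized for length and mapped reads. No gene of a table has a count of 0 in any library, so genes fully silent in a library are not listed. The deposited fold changes and p-values, and 16 further columns of per-sample values, were not used. The methods name DESeq2 for the study's own test.

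Groups and replicate numbers were taken from the sample labels, with 2 libraries in each group. Counts were filtered with filterByExpr, scaled by TMM and tested with the quasi-likelihood test of edgeR 4.0.16 (R 4.3.3), with Benjamini-Hochberg adjustment over all genes tested. The difference of the responses was a contrast in 1 fit of the 8 libraries over genes in both tables. Intervals are at the 95% level from the moderated degrees of freedom and, like the SEs, cover the spread between libraries. The code was tested on simulated data. All genes followed are named, and other pathway genes where they were called, with levels where a group mean reached 1 FPKM. The genes and lists were chosen with earlier results of these data known. The motifs other than GGCGCC and CCGGAA were added after the promoters were seen. Alternatives were DESeq2's size factors, the Wald test of DESeq2 1.42.0, no filter, a minimum of 10 counts per library, a replicate block, limma 3.58.1 on log2(FPKM + 0.5) over genes whose mean reached 0.5 FPKM or over all genes, pseudocounts of 0.1 and 1, other fold thresholds and the omission of each library. Gene positions are from GENCODE's annotation on GRCh37 and promoters from RefSeq on GRCh38.p14.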

Additional observations from a re-analysis of the deposited data

How the results depend on the processing

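Of the 10 genes followed, 4 were called for crowding, and 1 at an absolute log2 fold change over 1. For ETV4 KD, 3 were called, against 1 with limma on log2(FPKM + 0.5), 0 with a pseudocount of 1 or with all genes, 1 over a log2 fold change of 1, 5 without a fold threshold, and 1 to 6 with a library left out (1 without the first shControl library, 1 without the second shETV4 library, 6 without the first). The other pathway genes called for crowding numbered 9, against 5 with limma on log2(FPKM + 0.5), 4 with a pseudocount of 1, 5 over a log2 fold change of 1 and 21 without a threshold. For ETV4 KD they numbered 5, against 3 with the DESeq2 Wald test, 3 with at least 10 counts in every library, 2 in each limma setting and 3 to 5 with a library left out. In the difference they numbered 5, against 2 over a log2 fold change of 1 and 8 without a threshold. Values near 0 changed sign. BMPR2 under crowding was 0.0033 in limma (0.0036 and 0.0031 with pseudocounts of 0.1 and 1) and -0.13 to 0.026 with a library left out. ID3 under crowding was 0.0019 with at least 10 counts, 0.055, 0.055 and 0.054 in limma, and -0.069 to 0.068 with a library left out. BMP4 under ETV4 KD ran from -0.48 to 0.011, and the ID1 difference from -0.68 to 0.13, with a library left out. The cause of these changes was not tested. The labels do not say what a replicate number shares. Across genes, the deviations of same-numbered libraries from their group means correlated at -0.04 in the crowding experiment and 0.09 in the KD experiment. With the replicate block, 4, 3 and 4 of the 10 genes were called in the 3 comparisons, ID1 under ETV4 KD was 0.70 and the BMP4 difference, 0.66, was called. With 2 libraries a group, the spread between libraries limits the precision more than depth does.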

Other observations

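The genes whose profiles were most like those of ID1, ID3 and BMP4 were ranked by Pearson's r over the 8 libraries, on log2 CPM centred within each experiment, among 12474 genes. They are given as a description, since the libraries share 2 experiments and the highest of many values is reported. For ID1 these were RPL13 (r = 0.997), KREMEN2, LRRC14, NMRK2 and C11orf95 (r = 0.988). For ID3 these were TRAP1 (r = 0.984), RCN2, ZCCHC10, METAP1D and KLRA1P (r = 0.977). For BMP4 these were ASRGL1 (r = 0.979), LAMTOR5, BEX4, ADORA2A and LMF1 (r = 0.948). RPL13, a ribosomal protein gene at over 170 FPKM on average in each experiment, had log2 fold changes of 0.19 for crowding and 0.29 for ETV4 KD, smaller than those of ID1 (0.43 and 0.75). KREMEN2, a receptor for the WNT antagonist DKK1, was closer in size, at 0.44 and 0.68.

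The ratio of BMP7 to BMP4 FPKM was 2.14 and 2.61 at low density, 2.96 and 2.73 in crowded hESCs, 2.96 and 2.72 in shControl and 2.92 and 2.03 in shETV4 hESCs. BMP7 was thus the more abundant ligand in all 8 libraries. The second shETV4 library, which had the highest ID1 level of its experiment, also had the lowest ratio of that experiment.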
